A study of Mus musculus with 3 samples.

Results

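The nuclei described here were chosen at embryonic day (E) 16.5 by how open 5 bone loci were: Runx2, Sp7, Alpl, Ibsp and Spp1. Of the 14048 nuclei of the E16.5 library, 11675 held 10000 or more counts and were scored. For each locus the counts in peaks over the gene body and the 2 kb upstream were divided by their mean over these nuclei, the 5 values were summed and the sum was divided by the total count of the nucleus. The highest 5%, 584 nuclei, are called the gated nuclei, and the remaining 11091 scored nuclei are the nuclei they were compared with. The series holds 42365 nuclei in all. These are the barcodes in the files, more than the study states, and the sources used here give no filter that would leave fewer. The working name of these nuclei was osteogenic-like, but bone loci that the gate did not use were hardly more open in them, and the cartilage loci were, so they are named by the gate.

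Single-nucleus ATAC-seq, in which a transposase cuts open chromatin and each cut is counted in the nucleus it came from, had been run on sorted tdTomato+ cells of the mouse forelimb. All 3 libraries, 1 per stage (E12.5, E14.5, E16.5), came from Hic1CreERT2/CreERT2;Rosa26LSLtdTomato/tdTomato embryos of strain C57BL/6J. Their dams, over 7 weeks of age, had been gavaged with 7.5 mg tamoxifen in 300 uL sunflower oil at embryonic day 10. Every nucleus thus carried both Hic1 alleles with CreERT2. The labelled cells were those in which Hic1 had driven the recombinase, and their descendants. Tissue was the whole forelimb at the earlier stages and the segment around the elbow joint at the last, with embryos pooled. The sort had also excluded blood and endothelial cells by CD31, CD45, CD11b, CD117, Ter119 and F4/80, and digestion was with Dispase at E12.5 and with Collagenase A, Pronase and DNase later. The libraries held from 8.70e+07 counts (E12.5) to 4.13e+08 counts (E16.5), with medians per nucleus of 6004, 8575 and 26694 counts in order of age. At E16.5 nuclei held from 1678 to 155308 counts. The E16.5 library shared 151 barcodes with the E12.5 library and 401 with the E14.5 library. Each stage being 1 library, no replicate spread could be measured and no test was run, and the intervals given are exact 95% intervals for counting error alone. A locus was called past the fold where its level, in CPM (the count at the locus scaled to the total count of the same nuclei), had a log2 ratio of 0.32 or more in size.

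Long bones of the limb form on a cartilage model. RUNX2 and SP7 are the transcription factors that commit cells to the osteoblast fate, and both also act in cartilage cells as these mature. Alpl encodes the alkaline phosphatase that frees phosphate for mineral, and Ibsp and Spp1, which lie close together, encode bone sialoprotein and osteopontin, acidic proteins of mineralised matrix. The first osteoblasts arise in the perichondrium, the sheath around the cartilage, next to maturing chondrocytes, so cells of both fates lie side by side there.

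The sequences below are a choice of the peaks described in the text, and the Ibsp peak is not among them. The first 4 are peaks of the gate loci and the rest are the distal regions that led in the gated nuclei, each shown as its central 300 bases (GRCm38, plus strand, from the RefSeq assembly). The Spp1 promoter peak is cut at the base before the gene start. Capitals mark the RUNX core, TGTGGT or its reverse complement, the short sequence that RUNX proteins recognise.
Spp1 peak upstream of the gene, chr5:104432986-104433285: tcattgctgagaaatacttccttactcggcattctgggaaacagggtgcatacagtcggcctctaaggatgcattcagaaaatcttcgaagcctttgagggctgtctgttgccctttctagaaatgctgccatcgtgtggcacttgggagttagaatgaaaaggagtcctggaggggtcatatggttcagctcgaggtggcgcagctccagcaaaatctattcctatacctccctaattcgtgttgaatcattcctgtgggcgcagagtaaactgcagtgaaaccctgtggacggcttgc
Spp1 promoter peak, chr5:104434945-104435117: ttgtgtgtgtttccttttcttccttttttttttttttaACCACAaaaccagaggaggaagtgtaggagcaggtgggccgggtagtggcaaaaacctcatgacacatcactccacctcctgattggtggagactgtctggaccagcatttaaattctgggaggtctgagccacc
Sp7 intron peak, chr15:102365533-102365832: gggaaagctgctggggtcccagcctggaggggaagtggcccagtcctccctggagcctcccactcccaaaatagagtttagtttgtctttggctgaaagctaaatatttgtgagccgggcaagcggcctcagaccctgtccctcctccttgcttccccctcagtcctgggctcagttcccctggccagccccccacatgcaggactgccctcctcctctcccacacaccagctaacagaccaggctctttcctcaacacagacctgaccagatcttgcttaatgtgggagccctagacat
Runx2 intron peak, chr17:44520606-44520905: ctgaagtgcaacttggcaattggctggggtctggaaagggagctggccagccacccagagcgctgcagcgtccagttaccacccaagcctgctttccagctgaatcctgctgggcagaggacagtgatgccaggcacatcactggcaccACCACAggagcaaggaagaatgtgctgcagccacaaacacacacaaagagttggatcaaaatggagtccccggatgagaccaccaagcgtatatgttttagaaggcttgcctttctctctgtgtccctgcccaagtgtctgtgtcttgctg
Region 1, intron, chr9:47156325-47156624: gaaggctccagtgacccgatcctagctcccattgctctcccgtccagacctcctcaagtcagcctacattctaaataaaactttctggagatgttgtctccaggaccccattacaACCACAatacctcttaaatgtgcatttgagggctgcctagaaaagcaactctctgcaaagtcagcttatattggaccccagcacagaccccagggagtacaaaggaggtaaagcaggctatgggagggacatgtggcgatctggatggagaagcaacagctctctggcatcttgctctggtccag
Region 2, intergenic, chr12:16438763-16439062: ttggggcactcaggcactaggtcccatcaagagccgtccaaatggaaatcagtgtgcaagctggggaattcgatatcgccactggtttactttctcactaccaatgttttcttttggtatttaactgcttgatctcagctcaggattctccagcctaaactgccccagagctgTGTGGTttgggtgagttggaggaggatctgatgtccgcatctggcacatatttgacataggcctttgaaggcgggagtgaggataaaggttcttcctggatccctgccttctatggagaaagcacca
Region 3, intergenic, chr9:114111058-114111357: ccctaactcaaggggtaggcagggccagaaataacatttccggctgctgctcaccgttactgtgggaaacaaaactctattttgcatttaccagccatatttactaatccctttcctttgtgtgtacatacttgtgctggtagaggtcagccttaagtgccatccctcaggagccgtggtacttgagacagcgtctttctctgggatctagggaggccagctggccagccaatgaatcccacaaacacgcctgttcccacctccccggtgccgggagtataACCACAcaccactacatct
Region 4, intron, chr7:114081714-114082013: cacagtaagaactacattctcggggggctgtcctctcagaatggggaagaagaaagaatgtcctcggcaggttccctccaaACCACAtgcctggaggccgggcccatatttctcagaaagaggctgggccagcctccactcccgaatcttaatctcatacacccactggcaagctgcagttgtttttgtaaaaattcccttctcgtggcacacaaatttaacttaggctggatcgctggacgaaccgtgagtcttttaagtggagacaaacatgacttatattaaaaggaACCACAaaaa
Region 5, intergenic, chr13:29108274-29108573: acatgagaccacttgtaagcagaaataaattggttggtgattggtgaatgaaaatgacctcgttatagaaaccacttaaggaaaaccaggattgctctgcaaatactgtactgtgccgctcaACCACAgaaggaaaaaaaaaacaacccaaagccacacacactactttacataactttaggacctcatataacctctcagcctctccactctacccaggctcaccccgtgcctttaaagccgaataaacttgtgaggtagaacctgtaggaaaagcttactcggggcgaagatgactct
The Spp1 promoter stretch and the Runx2 intron peak each held 1 RUNX core, while the other Spp1 peak and the Sp7 intron peak held none in the window shown. Each of the 5 leading distal regions held at least 1 core, and region 4 held 2.

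The gate was carried by its sparsest loci. Ibsp (chr5:104299171-104311469) was read by 1 peak of 121 bp and had 68 counts in all scored nuclei, and Spp1 (chr5:104435118-104441050) was read by 2 peaks and had 1054 counts. Runx2 (chr17:44495987-44814797), in contrast, was read by 57 peaks with 102507 counts, some of them shared with Supt3, the gene it overlaps. Sp7 (chr15:102356606-102367182) was read by 4 peaks with 12309 counts and Alpl (chr4:137741733-137796384) by 17 peaks with 17509 counts. Since each locus was divided by its own mean, 1 fragment at Ibsp added 343 to a nucleus's sum and 1 at Spp1 added 22.2, against 0.228 at Runx2, 1.90 at Sp7 and 1.33 at Alpl. Ibsp supplied 47.0% and Spp1 42.2% of the summed score of the gated nuclei, and Runx2, Sp7 and Alpl together the small remainder.

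These values chose the nuclei and are given as a description. All 57 nuclei with an Ibsp count were gated, as were 462 of the 540 with an Spp1 count. Only 2 gated nuclei had counts at both, and 67 (11.5%) had neither and entered through Runx2, Sp7 and Alpl. The level of Spp1 was 44.3 CPM in gated nuclei and 0.283 CPM in the rest, that of Sp7 52.2 and 29.6 CPM, that of Alpl 63.4 and 42.7 CPM, and that of Runx2 300.3 and 254 CPM. Ibsp stood at 3.18 CPM in gated nuclei and had no count in the rest, a log2 ratio whose lower bound was 7.27. The lowest gated nucleus scored 3.568 per 10000 counts and the highest nucleus outside the gate 3.566, and 102 nuclei lay within 10% of that limit, 33 inside and 69 outside. The median gated nucleus scored 6.90 and the median other nucleus 0.709. Gated nuclei were slightly deeper, with a median of 34036 counts (10042 to 134335) against 30930, and had a similar share of counts in promoter peaks, 41.5% against 40.4%. With the scored nuclei in 10 groups by depth, the gated share ran from 3.26% to 6.51%, highest in the deepest group.

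Each gate locus was then read in nuclei gated on the other 4 loci, a reading that its own counts had not set. Runx2 was 285 CPM in the gated nuclei and 255 CPM in the rest, a log2 ratio of 0.16 (0.11 to 0.21). Sp7 stood at 37.5 and 30.4 CPM, a log2 ratio of 0.30 (0.16 to 0.45). Alpl stood at 52.2 and 43.3 CPM, a log2 ratio of 0.27 (0.14 to 0.39). All 3 were higher beyond counting error, and none was past the fold. Spp1, at 3.31 and 2.61 CPM, and Ibsp, at 0.240 and 0.166 CPM on 5 counts, had log2 ratios of 0.34 (-0.27 to 0.90) and 0.53 (-1.58 to 2.45), so that neither differed beyond counting error. The median log2 ratio over the 5 was 0.30. It was 0.58 (0.43 to 0.73) with a plain sum of counts, with the counting interval of the locus at the median. With binarised counts it was 0.19 (-0.04 to 0.41). That interval still took 1 fragment per 2 counts, though each binarised count already stands for at least 1 fragment, so it is too wide.

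Single peaks moved more than whole loci. In nuclei gated without Runx2, 13 of the 57 Runx2 peaks had intervals above 0 and 1 below. Of all distal regions, 10803 of 119361 had intervals above 0 in nuclei gated on all 5 loci. Among the 57 Runx2 peaks, the highest lower bound was that of the intron peak shown above (chr17:44520596-44520916, 321 bp), with a log2 ratio of 1.88 (1.14 to 2.62) on 20 fragments. An intron peak at chr17:44659762-44660760 had 1.12 (0.75 to 1.48), and the peak at the annotated gene start (chr17:44814109-44815372) had 0.85 (0.47 to 1.23). These peaks were picked after their values had been seen. At Sp7, gated without Sp7, the intron peak shown above (chr15:102365434-102365932, 499 bp) had 0.88 (0.18 to 1.56), the other intron peak 0.63 (0.27 to 0.98), the promoter peak 0.48 (0.07 to 0.87) and the wide exon peak 0.17 (-0.01 to 0.34).

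Bone loci outside the gate were close to the level of the other nuclei. Over the 43 genes of the bone lists that had counts, the median log2 ratio was 0.06, beside 0.0076 over all 8523 autosomal genes at or above the median accessibility. Of the 43, 1 was past the fold upwards and 1 downwards. Over all 8523 genes, 0.375% were past the fold upwards and 0.199% downwards, and of the 31 bone genes among them none was past it in either direction. In all, 10 of the 43 had intervals above 0 and 1 had its interval below 0, beside 994 and 709 of the 8523. The genes came from lists of regulators, matrix, mineralisation and signals, chosen with earlier results of these data known.

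Among the regulators, all 8 had log2 ratios between 0.06 and 0.17. Cbfb, which encodes the partner subunit of RUNX proteins, stood at 63.6 CPM in gated nuclei and 57.1 CPM in the rest, a log2 ratio of 0.15 (0.04 to 0.27). Dlx5 and Msx2, homeobox genes of early bone, had 0.17 (-0.01 to 0.34) and 0.17 (-0.01 to 0.36), and Dlx3 had 0.15. Dlx6, Atf4 and Fosl2 had 0.06, 0.06 and 0.08. Every one was thus above 0, with an interval clear of 0 only for Cbfb and Fosl2.

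The matrix genes showed no more. Col1a1, the main collagen of bone and of most connective tissue, was 173 CPM in gated nuclei and 167 CPM in the rest, a log2 ratio of 0.05 (-0.02 to 0.12), and Col1a2 had 0.08. Col24a1, a collagen of bone, had 0.07 (0.01 to 0.13), Omd, for osteomodulin, 0.14 (-0.01 to 0.29) and Sparc, for osteonectin, 0.06. Ifitm5, expressed in osteoblasts, had -0.08 (-0.43 to 0.25). Bglap, which encodes osteocalcin of mature osteoblasts, had 2 counts in the gated nuclei and gave a log2 ratio of -1.53 (-6.86 to 1.02). No peak covered Bglap2, and 1 peak covered Bglap, so the genes of mature osteoblasts could hardly be read.

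Of the 8 mineralisation genes, Smpd3, a sphingomyelinase needed for normal bone mineral, was the highest, at 76.8 CPM in gated nuclei and 63.9 CPM in the rest, a log2 ratio of 0.26 (0.16 to 0.37). Phex, the endopeptidase lost in X-linked hypophosphataemia, had 0.13 (0.00 to 0.26). The remaining 6 lay between -0.08 and 0.06, among them Phospho1, a phosphatase of matrix vesicles, at 0.0047 and Enpp1, which makes pyrophosphate, at -0.08; the phosphate transporters Slc20a1 and Slc20a2 had -0.08 and 0.03, Ank 0.02 and Fam20c, a kinase of secreted proteins, 0.06.

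Of the 20 signal genes, Tnfrsf11b, which encodes osteoprotegerin, the decoy receptor that limits osteoclast formation, was past the fold, at 27.0 CPM in gated nuclei and 21.1 CPM in the rest, a log2 ratio of 0.35 (0.18 to 0.53). Pth1r, the receptor of parathyroid hormone and PTHrP, had 0.26 (0.17 to 0.35) and Lrp5, a WNT co-receptor, 0.24 (0.16 to 0.33). Tnfsf11, the ligand RANKL, had 0.21 (-0.0046 to 0.42), and Sost, a WNT antagonist of osteocytes, 0.15 (-0.03 to 0.32). Gli2, a hedgehog effector, had 0.08 (0.04 to 0.13), while Vdr, Gli1, Igf1, Ptch1, Fgfr1, Csf1 and Bmpr1b lay between 0.01 and 0.12 with intervals that spanned 0. Fgfr2 had 0.06, but the annotation spans it over 2.96 Mb and 421 peaks, so that other genes are read with it. Bmp4 was lower, with -0.13 (-0.26 to -0.01), and Bmp2, Bmpr1a, Bmpr2, Lrp6 and Fgf23 lay between -0.08 and -0.01.

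The neighbours of the gate loci were read to see whether a wider stretch was open. Dmp1, Mepe, Sparcl1 and Pkd2, which lie near Ibsp and Spp1, had log2 ratios of 0.07, -0.18, -0.05 and 0.10, each with an interval that spanned 0, and Dspp had no counts. Supt3 had 0.18 (0.10 to 0.25), which the gate raised in part since 6 of its 33 peaks are also Runx2 peaks, and 0.13 (0.03 to 0.22) over the other 27.

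Cartilage loci were higher in the gated nuclei, but not with a plain sum of counts in place of the score, which gave a median log2 ratio of -0.067. Of 17 alternatives, 1 reversed the median, 2 moved it outside its counting interval and 14 did not. Gated without Spp1, the median was 0.48. With the score, all 16 cartilage genes had higher levels in gated nuclei with intervals above 0, with a median log2 ratio of 0.61, and 13 of 16 were past the fold. Only 6 of the 16 were among the 8523 genes behind the background of 0.375%, and 4 of these 6 were past the fold. Col9a1, which encodes a collagen of cartilage fibrils, was 63.8 CPM in gated nuclei and 33.7 CPM in the rest, a log2 ratio of 0.92 (0.81 to 1.04). Snorc and Chad, for matrix proteins of cartilage, had 0.81 (0.59 to 1.03) and 0.78 (0.57 to 0.99). Col2a1, for type II collagen, was 148 CPM and 96.5 CPM, a log2 ratio of 0.62 (0.55 to 0.70), and Acan, for aggrecan, 29.3 and 21.1 CPM, a log2 ratio of 0.47. The lowest ratios were those of Sox6 (0.34), Comp (0.31) and the factor genes Sox5 and Sox9: Sox5 had 0.26 and Sox9 0.23 (0.12 to 0.34). Wwp2, Cntn1, Syt8, Bmp5, Uqcc1 and Papss2 led the genes outside the lists, with log2 ratios of 0.69, 0.59, 0.56, 0.56, 0.55 and 0.47. Wwp2 hosts a microRNA of cartilage, and PAPSS2 makes the sulphate donor for proteoglycans.

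Of the hypertrophic cartilage genes, Ihh, the hedgehog signal of maturing chondrocytes, was 18.95 CPM in gated nuclei and 14.4 CPM in the rest, a log2 ratio of 0.40 (0.19 to 0.61). Panx3, a channel of hypertrophic chondrocytes and osteoblasts, had 0.48 (-0.01 to 0.94), Mef2c 0.16 (0.08 to 0.24) and Vegfa -0.01. Col10a1 and Mmp13, the defining genes of hypertrophic cartilage, had no counts in any scored nucleus, since no E16.5 peak covered them, so late hypertrophy could not be read.

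Other lists were near 0 or lower. The fibrogenic list had a median of -0.16, with Ly6a lowest (-0.51, -1.01 to -0.05) and Fap highest (-0.01), and 6 of its 8 intervals lay below 0. The epithelial list had -0.25, with Epcam at -0.50 (-0.83 to -0.18) and Krt1 at 0.08. In the tenogenic list, with a median of 0.05, Scx, the tendon transcription factor also open in early cartilage progenitors, had 0.52 (0.31 to 0.74) and Cilp -0.18. The dermal list had a median of 0.03, the pericyte list -0.08 with Des lowest (-0.41) and Cspg4 highest (0.17), and the lists of progenitor, joint and periskeletal genes 0.03, 0.05 and -0.02, with Id2 (0.21), Erg (0.29) and Dkk3 (0.28) the highest of these. Osr1 (-0.03), Gdf5 (-0.07) and Postn (-0.16) were the lowest. Hic1 itself was 94.3 CPM in gated nuclei and 96.0 CPM in the rest. Of the markers of sorted-out cells, Ptprc stood at 9.36 CPM in gated and 8.91 CPM in other nuclei and Pecam1 at 57.8 and 61.6 CPM, above the median gene at 32.7 CPM. No peak covered Gata1, and the summed blood list stood at 97.3 and 91.4 CPM. The osteoclast list had a median of 0.11, with Dcstamp at 0.68 (-0.04 to 1.40) on 37 counts in gated nuclei. The endothelial, adipogenic, myogenic and Schwann lists had medians of -0.13, -0.14, -0.16 and 0.14.

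The lowest genes outside the lists were Izumo1r, Lrrc36, Tmc3 and Xkr4, with log2 ratios of -0.51, -0.48, -0.46 and -0.45. Pkp1 and Tgm3, genes of epidermis, had -0.40 and -0.37.

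The gated nuclei were next set against gates on other fates. When a gate of the same size was built on Sox9, Col2a1, Acan, Matn1 and Cnmd, 71 of the 584 gated nuclei (12.2%, 9.62 to 15.1) were in it as well, whereas gates on tenogenic, fibrogenic, dermal fibrogenic and pericyte genes held from 3.77% to 5.99% of them, where 5% is the size of every gate. With a plain sum of counts in place of the score, 3.94% (2.51 to 5.85) were in the cartilage gate. Against other nuclei without an Spp1 count, the 71 had a cartilage median of 2.49, which their selection fixed since the list holds the 5 genes of that gate, and a bone median of 0.17. The 513 gated nuclei outside the cartilage gate had a cartilage median of 0.15 and a bone median of 0.04, with 2 of 16 and none of 43 past the fold, beside 0.0587% of tested genes. Their selection lowered the cartilage value in part, since nuclei high in the 5 cartilage genes were removed from them and not from the nuclei they were set against. Nuclei that entered through neither Spp1 nor Ibsp (67) had a bone median of 0.19, a cartilage median of 0.67 and a dermal median of 0.27, and those with an Ibsp count (57) had 0.11, 0.72 and 0.06. Past the fold upwards were 11 of 42 and 6 of 42 bone genes in these, and 15 of 42 in the 71. The share of all tested genes was not counted for these small groups.

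Along the score, the cartilage level was highest at the top. Nuclei were ranked by the gate score into 20 bins of about 584 nuclei and compared with all scored nuclei. The cartilage median was 0.57 in the highest bin, which is the gated nuclei, 0.26 in the second, 0.17 in the third and -0.12 in the lowest. The dermal median was 0.03 in the highest bin, 0.27 and 0.28 in the next ones and -0.33 in the lowest. The bone median ran from 0.06 in the first and second bins to -0.07 in the 19th, the narrowest span of the 4 lists.

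**Figure D1:**
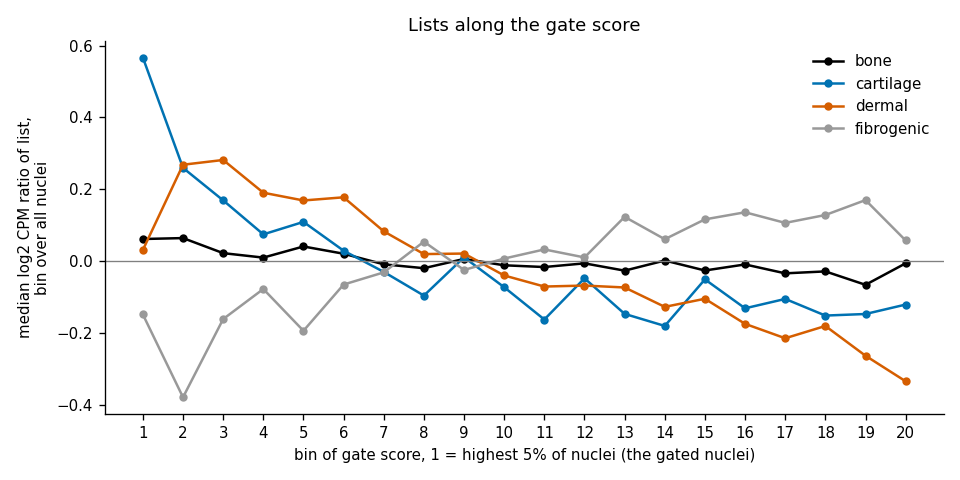
Median log2 ratio of CPM of 4 gene lists in 20 bins of the gate score, each bin over all scored E16.5 nuclei (bin 1 holds the 584 gated nuclei). The cartilage list falls from 0.57 in bin 1 to 0.26 in bin 2, while the dermal list rises from 0.03 in bin 1 to 0.27 in bin 2 and the bone lists stay between -0.07 and 0.06.

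The 5 loci did not travel together across other fates. In the cartilage gate Spp1 was 8.87 CPM and 2.41 CPM in the other nuclei, a log2 ratio of 1.88 (1.48 to 2.26), and Sp7 was 48.8 and 30.1 CPM, a log2 ratio of 0.69 (0.54 to 0.85). Runx2 (-0.05, -0.12 to 0.02) and Alpl (0.14, -0.02 to 0.30) were within counting error there. In the dermal fibrogenic gate Runx2 was 383 and 251 CPM, a log2 ratio of 0.61 (0.56 to 0.66), and Alpl 69.5 and 42.7 CPM, a log2 ratio of 0.70 (0.58 to 0.82), with Sp7 at 0.39 (0.23 to 0.55), while Spp1 had 0.34 (-0.26 to 0.89). Of all genes tested, 20.4% were past the fold upwards in the cartilage gate, so large ratios were common there. Within the Runx2 locus, 7 of 57 peaks had intervals above 0 in the cartilage gate and 21 below. Peaks were commonly lower there, since all distal regions had a median log2 ratio of -0.62 and 30.4% of them were above 0. Those values rest on ratios, and how many of all regions had intervals clear of 0 in the cartilage gate was not counted. The intron peak at chr17:44788630-44789203 had 3.06 (2.67 to 3.43) and the peak at a promoter inside the gene (chr17:44733560-44739755) 0.77 (0.62 to 0.91), while the intron peak at chr17:44545131-44548557 had -1.33 (-1.76 to -0.90). The intron peak that led in nuclei gated without Runx2 had 1.82 (0.86 to 2.66). At Sp7 the intron peak shown above had 2.71 (2.19 to 3.23), the other intron peak 1.255, the exon peak 0.49 and the promoter peak -0.13 (-0.78 to 0.45). Both Spp1 peaks were higher, by 2.15 (1.69 to 2.58) upstream and 1.15 (0.21 to 1.96) at the promoter.

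The nuclei were next grouped without any of these loci. Clusters were made on regions more than 100 kb from every listed gene, and the listed genes were then read in them. Most tested genes are not listed and could help to form the clusters. That use can raise the share of tested genes past the fold in a cluster. Of 7 clusters, cluster 4 (1283 nuclei), chondrocyte-like with 16 of 16 cartilage genes past the fold beside 14.7% of tested genes, held 181 gated nuclei, 31.0% of them, and 14.1% (12.2 to 16.1) of its nuclei were gated. Cluster 3 (1548 nuclei), dermal fibroblast-like with 9 of 10 dermal genes past it beside 11.4%, followed with 6.40%, and the others held 2.09% to 4.55%. When the other nuclei were weighted to the clusters of the gated nuclei, the cartilage median fell from 0.61 to 0.03 and the bone median from 0.06 to 0.0076, with none of 16, none of 43 and none of the 8523 tested genes past the fold. Within single clusters the cartilage median of gated over other nuclei was 0.11 in cluster 1, 0.16 in cluster 2, 0.02 in cluster 3 and 0.07 in cluster 4, and from -0.17 to 0.25 in the others, which held 10 to 19 gated nuclei.

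With 20 clusters, a number chosen after the 7 had been seen, 2 had the highest gated shares. They were picked by that share, so their levels of the gate loci are a description. Fine cluster 17 (362 nuclei) had 61 gated nuclei, 16.9% (13.1 to 21.1), and fine cluster 7 (624 nuclei) 91, 14.6% (11.9 to 17.6). In the other 18, gated shares ran from 1.99% to 7.16%. Of the nuclei in cluster 17, 80.1% came from the chondrocyte-like cluster 4, and of those in cluster 7, 95.4%. The remaining 432 gated nuclei, 74.0%, were spread over the other 18 clusters, where 4.04% of nuclei were gated. From another random start, clusters of 363 and 631 nuclei again had the highest shares, 16.8% and 14.3%.

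**Figure D2:**
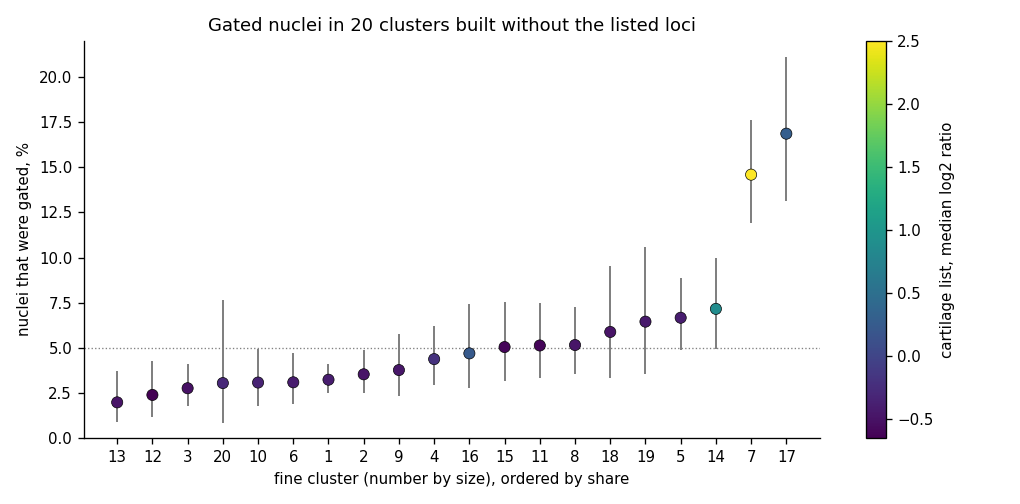
Share of nuclei that were gated (points, with exact 95% binomial intervals) in each of 20 clusters of the scored E16.5 nuclei, coloured by the median log2 ratio of the cartilage list; the dotted line is 5%, the size of the gate. Clusters 7 (14.6%) and 17 (16.9%) lie above all others, and only cluster 7 has a cartilage median over 2.

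Fine cluster 7 was chondrocyte-like. All 16 cartilage genes were past the fold in it, with a median log2 ratio of 2.50, and Col9a3 (3.40), Col9a1 (3.12), Col11a2 (2.90) and Col2a1 (2.86) led its genes at or above 20 CPM over all scored nuclei. Background here was high, with 25.1% of genes past the fold upwards and 12.9% downwards. Spp1 stood at 10.4 CPM in it and 2.31 CPM in the other nuclei, a log2 ratio of 2.18 (1.83 to 2.52), and Sp7 at 50.9 and 29.95 CPM, 0.76 (0.62 to 0.91). Runx2 had -0.10 (-0.17 to -0.04) and Alpl 0.12 (-0.02 to 0.27). Col1a1 was less open, at 70.7 and 171 CPM, a log2 ratio of -1.27 (-1.39 to -1.15). Of the bone lists, Tnfrsf11b (1.96), Smpd3 (1.06), Lrp5 (0.71) and Pth1r (0.60) were the highest, the same 4 that led in the gated nuclei. Of the 91 gated nuclei in it, 78 had an Spp1 count and 6 an Ibsp count.

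In fine cluster 17 all 5 gate loci had intervals above 0. Runx2 stood at 389 CPM in it and 252 CPM in the other nuclei, a log2 ratio of 0.63 (0.57 to 0.68). Sp7 stood at 58.6 and 29.8 CPM, 0.98 (0.83 to 1.12), and Alpl at 77.1 and 42.6 CPM, 0.86 (0.73 to 0.98). Spp1 stood at 5.82 and 2.52 CPM, 1.21 (0.71 to 1.67), and Ibsp at 1.56 and 0.119 CPM, 3.71 (2.53 to 4.80) on 22 counts. It held 17 of the 57 nuclei with an Ibsp count, 29.8% (18.4 to 43.4), with 3.10% of all scored nuclei. Runx2 had higher log2 ratios in fine clusters 5 and 11, 0.83 and 0.84, where 6.67% and 5.13% of nuclei were gated. Alpl had 0.98 and 0.79 in these and Sp7 0.22 and 0.43, with intervals above 0, while Spp1 was within counting error. Their bone matrix medians were 0.33 and 0.53, beside 0.23 in cluster 17, and their dermal medians were both 0.75.

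Bone genes that the gate had not used were then read in cluster 17. Of the 43 with counts (median log2 ratio 0.12), 12 were past the fold upwards and 3 downwards, and of the 31 among the 8523 tested genes, 8 were past it upwards and none downwards, beside 6.28% of tested genes upwards and 6.69% downwards. In cluster 7, 14 of 42 were past the fold upwards and 7 downwards, with a median of 0.15. Of the 31 tested, 10 were past it upwards and 5 downwards there, beside 25.1% and 12.9% of tested genes. Fine cluster 14, with a gated share of 7.16%, had a bone median of 0.17, with 10 of 43 upwards and 2 downwards. Fine cluster 19 (6.45% gated) had 0.06, with 11 of 43 upwards and 7 downwards. The share of tested genes was not counted for these clusters. In cluster 17, Tnfsf11 stood at 35.1 and 15.6 CPM, a log2 ratio of 1.17 (0.98 to 1.36), Omd at 57.2 and 32.9 CPM, 0.80 (0.65 to 0.95), and Phex at 72.9 and 42.1 CPM, 0.79 (0.66 to 0.92). Dlx6 and Dlx5 had 0.61 (0.45 to 0.78) and 0.59 (0.40 to 0.77), Cbfb 0.39, Lrp5 0.70, Ptch1 0.48, Col1a2 0.62 and Col1a1 0.44 (0.36 to 0.51). Panx3 had 1.27 (0.82 to 1.72) on 93 counts. Bglap had 2 counts in it, Bglap2 and Dspp none, and Dmp1, a gene of osteocytes, was lower, with -0.57 (-1.02 to -0.12).

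Of the periskeletal list, Aspn (0.91), Dkk3 (0.91) and Col12a1 (0.53) were past the fold upwards, and Postn (-0.37) was past it downwards. The cartilage list had a median of 0.28, above the 0.12 of the bone lists, with 6 of 16 past the fold upwards and none downwards. Of the 6 cartilage genes among the tested genes, 1 was past it upwards, beside 6.28% of tested genes. Chad had 0.78 and Comp 0.64, while Col9a3 had -0.15 and Sox9 0.07. Single genes of other lists had log2 ratios as high as those of the bone genes. Ptprc, a leukocyte marker that the sort excluded, stood at 23.8 and 8.39 CPM, a log2 ratio of 1.51 (1.27 to 1.74), while the other blood genes with counts, Spi1, Itgam, Csf1r and Kit, had -0.25, 0.25, -0.67 and -0.02. Scx, a tendon regulator, had 1.105 (0.89 to 1.32) with 2 of 9 tenogenic genes past the fold upwards, Adipoq 1.11 (0.44 to 1.77) with 1 of 5 adipogenic genes, and Fap 0.70 (0.59 to 0.81) with 1 of 8 fibrogenic genes, 6 of which were past it downwards. The part of other cell types in cluster 17 was not tested. The genes that led it by the same minimum, Cntn1 (1.604), Vipr2 (1.46), Fam107a (1.38) and Olfm3 (1.34), are in none of the lists. No bone gene was among its first 10, and it was left unnamed. That ranking was uneven, since unlisted genes could help to form the clusters and listed genes could not. Ptprc (1.51), Panx3 (1.27) and Tnfsf11 (1.17) also fell below the minimum. Tnfsf11 was in any case under the 10th gene, Ccdc25 (1.186). All 61 gated nuclei in cluster 17 had a Runx2 count, 48 an Alpl count, 43 an Sp7 count, 33 an Spp1 count and 17 an Ibsp count.

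**Figure D3:**
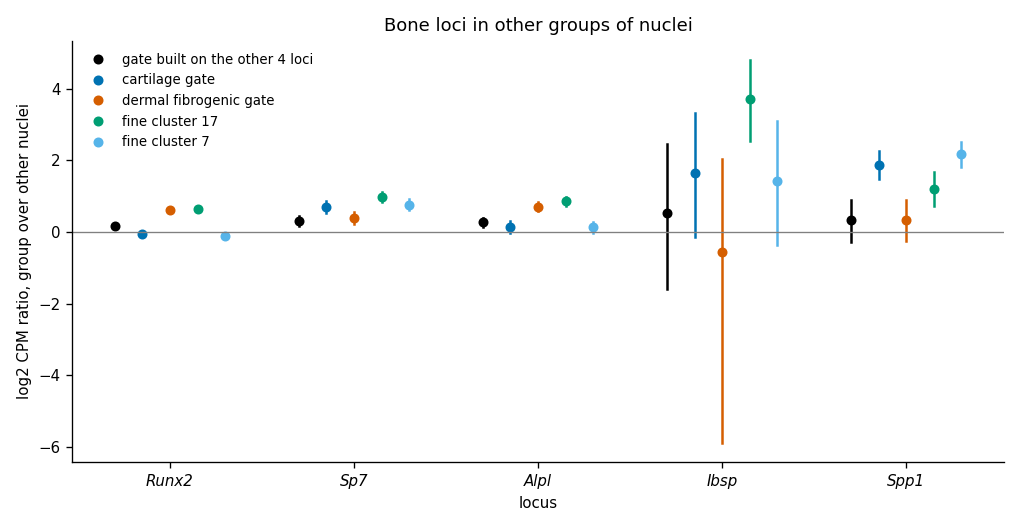
Log2 ratio of CPM, group over other scored E16.5 nuclei, of the 5 gate loci in other groups of nuclei (points, with 95% counting intervals): the gate on the other 4 loci, the cartilage and dermal fibrogenic gates, and fine clusters 17 and 7, which were picked for their gated share. In cluster 17 every locus lies above 0, while in the cartilage gate and cluster 7 Runx2 lies at -0.05 and -0.10 and Spp1 at 1.88 and 2.18.

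Gated nuclei were also compared with the other nuclei of the same cluster. In cluster 7 the gated nuclei had a bone median of 0.0037 and a cartilage median of 0.01 over the other nuclei of the cluster. In cluster 17 the medians were 0.20 and 0.24, on 61 nuclei.

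Distal regions were read last: peaks outside promoters on autosomes, over 100 kb from every gate locus and with at least 200 fragments, of which 119361 remained. Of these, 16.8% were past the fold upwards in gated nuclei. The 500 with the highest lower bounds had a median log2 ratio of 1.44, and 49.2% lay in introns and 43.6% between genes, against 46.5% and 42.7% of all. Region 1 (chr9:47156188-47156763), in an intron 157734 bases from the nearest protein-coding start, was 4.54 CPM in gated nuclei and 0.9995 CPM in the rest, a log2 ratio of 2.18 (1.71 to 2.66). Region 2 (chr12:16438531-16439295), nearest to Lpin1, had 2.005 (1.64 to 2.35), region 3 (chr9:114110874-114111543), nearest to Susd5, 2.06, region 4 (chr7:114081413-114082315), nearest to Rras2, 2.01, and region 5 (chr13:29108185-29108664), nearest to Sox4, 2.10. In the cartilage gate the same 5 had 1.86, 3.56, 2.42, 1.52 and 2.38, and in the dermal gate -3.39, -0.65, -1.38, -0.90 and -0.65. Within 100 kb of a cartilage gene lay 11 of the 500, or 2.2%, and 0.280% of all regions, and within 100 kb of a bone gene 6 of the 500, or 1.2%, and 1.004% of all.

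Of the 10 sequences searched, the RUNX core differed most between the 500 and all regions. It was present in the central 300 bases of 231 of them, 46.2% (41.8 to 50.7), and of 22.2% of all 119361 regions. The NFI site (TTGGCA) was present in 30.8% and 23.9%. An E-box of the TWIST and SCX type (CATCTG) was rarer, in 18.4% and 31.0%, as were the SOX core (CATTGT), in 8.40% and 15.2%, and the AP-1 site (TGANTCA), in 11.6% and 18.4%. Without Spp1 in the gate, a set that shared 101 regions, the E-box was instead in 40.2% (35.9 to 44.6) and the SOX core in 16.8% (13.6 to 20.4). The TEAD (GGAATG), homeobox (TAATTA), FOX (TGTTTAC), ETS (GGAAGT) and GC box (GGGCGG) sequences had shares whose intervals held those of all regions. Both strands were searched, none of these sequences contains another, and a match describes the letters and not a site.

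**Figure D4:**
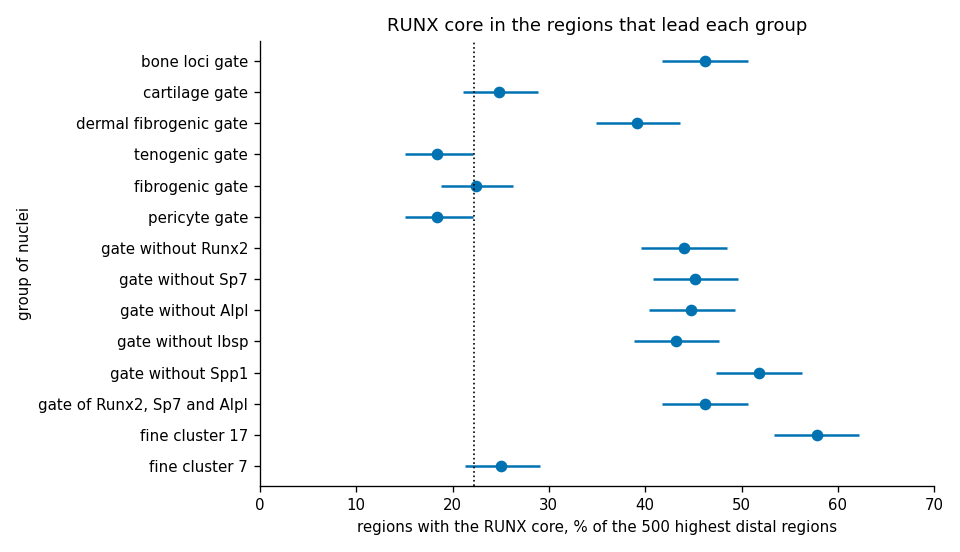
Share of the 500 leading distal regions that hold the RUNX core in their central 300 bases (points, with exact 95% binomial intervals), for the gated nuclei (top), other gates, gates with loci left out and the 2 fine clusters; the dotted line is the share of all 119361 regions, 22.2%. The gates on bone loci lie between 43.2% and 51.8% and fine cluster 17 at 57.8%, while the cartilage gate and fine cluster 7 lie at 24.8% and 25%.

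The same count was made for other groups of nuclei, each with its own 500 leading regions. The share was 24.8% in the cartilage gate and 25% in fine cluster 7, with intervals of 21.1 to 28.8 and 21.3 to 29.0 that held the share of all regions. In the dermal fibrogenic gate it was 39.2%, and in the fibrogenic, tenogenic and pericyte gates 22.4%, 18.4% and 18.4%. Fine cluster 17 had 57.8% (53.3 to 62.2), the highest of these groups. Distal regions over 100 kb from every listed gene could help to form the clusters, while the gates used none. The leading regions of clusters and gates were thus not chosen alike. Leaving Runx2 itself out of the gate gave 44.0%, over a set that shared 565 nuclei and 455 of 500 regions with the full gate and so could differ little from it. A gate on Runx2, Sp7 and Alpl alone, which shared only 104 nuclei and 53 regions with the full gate, gave 46.2% too. Its other shares were unlike those of the full gate: the E-box was in 49.0% (44.5 to 53.5), the SOX core in 18.0% (14.7 to 21.7) and the NFI site in 20.6% (17.1 to 24.4), beside 58.2%, 22.4% and 18.8% in the dermal fibrogenic gate.

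The 500 regions of the gated nuclei were mostly open in cartilage. Of them, 485 had a log2 ratio above 0 in the cartilage gate, with a median of 3.16, and 8% were above 0 in the dermal gate, with a median of -0.78. Of all distal regions, 30.4% were above 0 in the cartilage gate, with a median of -0.62, and 36.2% in the dermal gate, with a median of -0.34. Of the 500, 168 were also among the 500 of the cartilage gate and 110 among those of fine cluster 17. The 231 regions with a RUNX core had a median of 2.01 in fine cluster 17 and 2.72 in fine cluster 7, and the 269 without one had 0.73 and 3.74. Over all regions the medians were -0.38 and -0.79. Regions with the core were thus higher in cluster 17 and lower in cluster 7 than those without it, though still higher in cluster 7 than in cluster 17. Distal regions could help to form the clusters, which can raise their medians there. With the other nuclei weighted to the 7 clusters, the 500 had a median log2 ratio of 0.40 and all regions 0.00065. The 500 had been picked for high ratios in these same nuclei, so part of the 0.40 was set by that choice.

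At E14.5 the gate could not be built in the same way. No E14.5 peak covered Spp1 or Ibsp, and no E12.5 peak covered Ibsp, so the 420 nuclei gated at E14.5 were chosen on Runx2, Sp7 and Alpl and the 134 at E12.5 on these and Spp1. Stage, tissue segment and library cannot be told apart in these values. Read in nuclei gated on the other loci, Runx2 had a log2 ratio of 0.06 (-0.05 to 0.16) at E14.5 and 0.17 (0.04 to 0.30) at E12.5, Sp7 -0.02 (-0.45 to 0.38) and 0.39 (0.01 to 0.76), and Alpl 0.22 (-0.05 to 0.49) and 0.06 (-0.36 to 0.45). The cartilage list had medians of -0.01 at E14.5 and -0.02 at E12.5 with none of 16 genes past the fold, and the bone lists -0.00045 and -0.05, with none of 42 and 3 of 42, beside 0.493% of all genes at E14.5 and 3.91% at E12.5. Of the 500 regions, 274 had an E14.5 peak with counts, and 154 of these (56.2%, 50.1 to 62.2) were above 0 in the E14.5 gate, against 46.3% of all such regions. Gating in another way at both stages also picked other leading regions at E16.5. The share was then 96.5% (92.6 to 98.7) with a plain sum of counts and 80.1% (74.5 to 84.9) with the highest 10% of nuclei. Those values describe other regions than the 500 above. The share of all regions was not counted under these alternatives. In a cartilage gate at E14.5, 85.8% of 275 were above 0, against 39.9% of all.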

How the data were processed

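Single-nucleus ATAC-seq of 3 libraries was used as deposited by the authors: counts of transposase cut sites per peak and nucleus barcode, not normalised, made with Cell Ranger ATAC (version 1.1.0 in the submitters' notes, in the file headers 1.2.0 for the E16.5 library and 1.0.1 for the others) on mm10, with peaks called per library. At E16.5, 92.5% of counts were even, so counting intervals used 1 fragment per 2 counts. Nuclei with 10000 or more counts were scored. Peaks were assigned to gene bodies plus 2000 bp upstream (GENCODE, GRCm38), and CPM was taken over the total counts of the nuclei in a group. Ratios carry exact conditional binomial intervals, and shares exact Clopper-Pearson intervals, at 95%. No doublet caller was run. Leaving out the deepest nuclei was one of the alternatives.

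Clusters came from latent semantic indexing and k-means on regions over 100 kb from any listed gene. A promoter peak was one that touched the 1000 bp before a gene start or the first 100 bp after it. The members and the gene lists were chosen with earlier results of these data known. The rule for named genes took all genes of the gate, bone and hypertrophic lists, the highest and lowest of each other list, the 10 highest and 10 lowest genes outside the lists among those at or above the median accessibility, and the 5 leading distal regions. Some genes that the rule named are not reported here. Further genes of these lists, single peaks, the 20 clusters, the cluster weighting and the gate of 3 loci were chosen after values had been seen. Scripts were tested on simulated data. Python 3.11.15, numpy 2.4.6, scipy 1.17.1, pandas 2.3.3, scikit-learn 1.9.0, pysam 0.24.0 and matplotlib 3.10.9 were used.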

Additional observations from a re-analysis of the deposited data

How the results depend on the processing

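The bone loci outside the gate kept a median log2 ratio between 0.0076 and 0.11 under all 17 alternatives (0.06 as reported). Other results moved. Taking the highest 2% of nuclei gave a cartilage median of 0.94 and a RUNX core share of 38.2%, and the highest 10% gave 16.4% of gated nuclei in the cartilage gate and 80.1% of regions above 0 at E14.5. A plain sum of counts, which Runx2 dominates, turned the cartilage median to -0.067 and gave 0.58 for the loci left out, 3.94% in the cartilage gate, a RUNX share of 40.2% and 96.5% above 0 at E14.5. Weighting to the 7 clusters gave a cartilage median of 0.033, and the gate of Runx2, Sp7 and Alpl gave 9.25% in the cartilage gate. The RUNX share was 40.4% with the depth minimum doubled, 32% with binarised counts, 40.7% over 1000 regions and 33.2% in the central 200 bp. For the doubled minimum, the binarised counts and the shorter window, the RUNX share of all regions was not counted. Whether the core was less enriched under those settings thus cannot be read from these shares. The E14.5 share was 62.4% gated within depth deciles, 64.2% with binarised counts and 70.4% with a lower E14.5 depth minimum. For the E14.5 alternatives the share of all regions was not counted. Alternatives that changed the E16.5 gate, depth minimum or counts also picked other leading regions. The causes were not tested. No paired analysis was possible because each stage is 1 library. Ibsp was read by 1 peak with 68 counts, which limits what can be said of it.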
